A study of Mus musculus with 31 samples.

Results

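Acsm3 and 5 genes that lie beside it on mouse chromosome 7, Thumpd1, Eri2, Rexo5, Dcun1d3 and Lyrm1, were examined in irradiated mouse tumors. The 6 genes were picked by name out of 46072 genes measured. They were picked because Acsm3 was known to be higher in MC-38 tumors 12 h and 24 h after radiotherapy (RT), so those 2 comparisons, and that of 24 h with 12 h, are described here without a test for all 6 genes. The comparisons not used for the choice were tested.

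The data were mRNA libraries of 31 tumors, 1 per mouse. RM-9 (labelled RM9) is a mouse prostate cancer line and MC-38 (labelled MC38) a mouse colon cancer line. Each was injected under the skin of a hind leg in C57BL/6 mice (C57BL/6J in the study's methods, genotype WT), and tumors grew to 8 mm in diameter. Control mice had no treatment and carried a 3 h time label. Irradiated mice received a single dose of 15 Gy, and their tumors were taken 3 h, 12 h or 24 h later. There were 4 mice per group but 3 in RM-9 RT 24 h. Within a tumor model all 3 RT groups were compared with the same 4 controls, so a change with time alone cannot be told apart from a change after RT at 12 h and 24 h. By the study's methods the mice were males bought at an age of 6 to 7 weeks. Depth, worked out from the coverage and FPKM columns, was 23.0 to 29.4 M reads in RM-9 and 21.4 to 25.5 M reads in MC-38 libraries. Expression is given as TPM, the abundance of a gene's transcripts scaled by their length, with 1 fixed total for all libraries. The mitochondrial transcript mt-Nd4l alone took 35.6 to 43.5% of TPM in RM-9 and 12.9 to 29.6% in MC-38. Tumor tissue holds several cell types, and fewer cells of a type cannot be told apart from less RNA per cell.

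Both tumors are labelled adenocarcinoma, a cancer of gland-forming epithelium. RM-9 tumors held the epithelial keratins Krt8 at 463 to 1069 TPM and Krt18 at 147 to 325 TPM. In MC-38 tumors these markers were at or near 0. Krt8 was at most 0.202 TPM, Krt18 at most 0.539 TPM, Krt19 at most 0.293 TPM and Epcam at most 0.573 TPM, with a median of 0 for each over 16 libraries.

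The ACSM family are mitochondrial enzymes that join medium-chain fatty acids to coenzyme A, the step that commits a fatty acid to oxidation or conjugation, and they are best known from liver and kidney. The neighbours have unrelated roles. Thumpd1 binds tRNA and is a partner of the RNA acetyltransferase Nat10, Eri2 and Rexo5 belong to the DEDDh exonucleases that trim RNA or DNA from an end, Dcun1d3 belongs to the DCN1-like proteins that act on cullin neddylation, and Lyrm1 belongs to the LYR motif proteins, many of which serve in mitochondria.

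In the coordinates of the deposited files, Acsm3 (ENSMUSG00000030935) lies on the plus strand at chr7:119760923-119787513. Thumpd1 (ENSMUSG00000030942) lies on the minus strand at chr7:119715096-119720765, before Acsm3. Eri2 (ENSMUSG00000030929) lies on the minus strand at chr7:119768679-119794058 and runs into Acsm3 from the opposite side. Rexo5, listed in the files as 2610020H08Rik (ENSMUSG00000030924), lies on the plus strand at chr7:119794006-119848943. Dcun1d3 (ENSMUSG00000048787) lies on the minus strand at chr7:119853163-119896291 and Lyrm1 (ENSMUSG00000030922) on the plus strand at chr7:119895861-119916756. These positions fit mouse build GRCm38. Of the 45223 gene identifiers shared with GENCODE M21, an annotation of GRCm38, 83.2% had the same start and end and 99.7% a start within 50 kb, whereas the labels name GRCm39.

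Acsm3 and Eri2 overlap by 18835 bases on opposite strands. Of the exon bases annotated for Acsm3 in GENCODE M21, 1962 of 4936 (39.7%) also lie in an Eri2 exon. Of all 75-base stretches of the protein-coding Acsm3 transcripts, the read length used here, 36.8% had their reverse complement in Eri2 transcripts, and none had a copy on the same strand in another gene. For Eri2, 20.7% of such stretches faced Acsm3 transcripts, and 1.0% were shared on the same strand with Gm44966. The library kit keeps strand, but whether strand was used in counting is not given in the sources used here, so the split between Acsm3 and Eri2 is uncertain to that extent. The other member pairs that overlap share few exon bases, 53 between Eri2 and Rexo5 and 37 between Dcun1d3 and Lyrm1. Of the 75-base stretches of Lyrm1, 18.1% faced Dnah3 transcripts, and those of Thumpd1, Rexo5 and Dcun1d3 were not shared with another gene on either strand.

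The Acsm3 promoter is shown because Acsm3 is the member whose level differed most between irradiated and control tumors. All 6 members were matched in the RefSeq promoter table (GRCm38.p6). The 250 bases before the RefSeq start of Acsm3, chr7:119760673-119760922 on the plus strand, contain no exon of another gene in GENCODE M21 and read as follows, with each CCAAT in capitals.
Acsm3: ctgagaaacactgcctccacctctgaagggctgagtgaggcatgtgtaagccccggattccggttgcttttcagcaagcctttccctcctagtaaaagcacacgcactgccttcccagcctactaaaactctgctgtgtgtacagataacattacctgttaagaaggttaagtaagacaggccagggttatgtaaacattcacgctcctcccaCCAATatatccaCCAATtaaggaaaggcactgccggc
The window holds 2 copies of CCAAT, at 37 to 33 and at 25 to 21 bases before the start. Searched on both strands, CCAAT was in 33.9% of 32851 RefSeq windows of the same length and in this 1 of the 6 member windows. The window of Acsm3 had 5 CpG, with a median of 6 over all windows. The windows of Eri2, Rexo5, Dcun1d3 and Lyrm1 had 21, 30, 19 and 26 CpG, and each held GGGCGG, which was in 32.7% of all windows and not in that of Acsm3. The Eri2 and Rexo5 windows, like those of Dcun1d3 and Lyrm1, each cover an exon of the other gene. The windows of each pair also overlap and share a GGGCGG site, so their matches and CpG counts are not separate. The RefSeq start of Thumpd1 lies 2854 bases from the start in the files, and its window had 1 CpG. No member window held TATAAA (in 12.4% of all windows), TGANTCA (6.75%), TTCNNNGAA (7.02%) or one repeat unit of the p53 response element (7.13%). A match of letters is a description and shows no binding.

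In RM-9 tumors Acsm3 was listed at 0 in all 15 libraries, irradiated or not, in TPM and in coverage. In MC-38 tumors it was above 0 in all 16. The MC-38 control mice had 1.54, 0.870, 2.79 and 0.539 TPM. At 3 h after RT the mice had 3.06, 6.79, 5.88 and 12.4 TPM, all 4 above the highest control.
At 12 h the values were 7.51, 11.8, 14.5 and 13.5 TPM. At 24 h they were 29.0, 15.4, 14.2 and 14.5 TPM. All 8 of these mice were above every control, and at 24 h 1 mouse stood well above the other 3. Group means were 1.43 ± 0.994 in controls, 7.03 ± 3.91 at 3 h, 11.8 ± 3.09 at 12 h and 18.3 ± 7.16 TPM at 24 h (SD, n = 4 each). The mean was thus 4.90 times the control mean at 3 h, 8.25 times at 12 h and 12.7 times at 24 h. Coverage of the gene was 0.56 to 1.83 reads per base in controls and 10.0 to 23.0 at 24 h, so the control values rest on few reads.

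**Figure D1:**
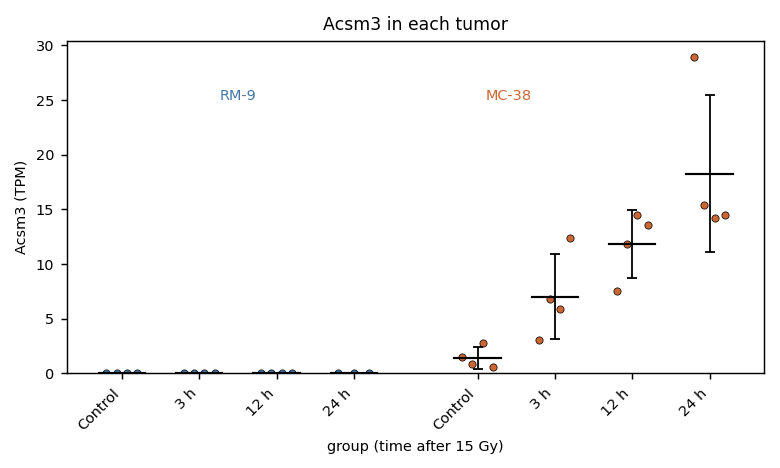
Acsm3 in TPM (y axis) for each tumor (points) by group (x axis), with means (horizontal lines) and SD (bars). All 15 RM-9 tumors are at 0, and in MC-38 the controls lie between 0.539 and 2.79 TPM, below every irradiated tumor.

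Fits were made with limma on log2(TPM + 0.5), which understates the change of low genes, with p-values adjusted over all genes tested. At 3 h after RT in MC-38, Acsm3 differed from control by 1.95 ± 0.39 (SE) on the log2 scale, 3.87-fold, and did not pass the threshold of 0.05 (limma, adjusted p = 0.0669). Of 15722 genes, 0.0636% passed in this comparison, and 7.19% had all 4 irradiated mice above all 4 controls, as Acsm3 did. Without 1 mouse at a time, the adjusted p in limma ran from 0.0205, without control mouse 3, to 0.189. Under 10 other settings it ran in limma from 0.0403, with TPM rescaled without mitochondrially encoded genes and the only one of them to pass, to 0.388, with the 2 groups fitted alone. Only 4 genes had a larger log2 difference at 3 h.
At 12 h the log2 difference was 2.77 ± 0.39 (SE), 6.83-fold, and at 24 h it was 3.35 ± 0.39 (SE), 10.2-fold. In each of these comparisons 5 genes of 15722 had a larger difference. These 2 values are the ones by which Acsm3 was chosen, and they carry no test. Without the high mouse at 24 h the difference was 3.10. Between 24 h and 12 h, groups that both entered the choice, Acsm3 differed by 0.58 ± 0.39 (SE), given here with no test. The order of the MC-38 levels was control, 3 h, 12 h and 24 h, and neighbouring RT groups in this order overlapped.

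In the RM-9 libraries in which Acsm3 was listed at 0, as in all others, 8 housekeeping genes were above 8.5 TPM. Acsm3 was 1 of 120 genes listed at 0 in every RM-9 library with a mean of at least 1 TPM in MC-38, out of 14235 genes at that level in MC-38. Eri2, whose exons overlap those of Acsm3, was above 0 in all RM-9 tumors, at 1.84 to 6.65 TPM. No fold or test is given for Acsm3 in RM-9 or between the tumor models.

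The other ACSM genes were not detected or nearly so. Acsm2 and Acsm5 were listed at 0 in all 31 libraries. Acsm1 was above 0 in 1 RM-9 library, at 0.0283 TPM, and in no MC-38 library. Acsm4 was listed at 0 in RM-9 and was above 0 in 8 of 16 MC-38 libraries, at up to 0.489 TPM.

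Thumpd1 was the most abundant of the 6 genes. In MC-38 controls it was at 31.6, 49.7, 46.5 and 40.4 TPM, at 3 h at 40.6, 51.1, 47.9 and 62.4, at 12 h at 48.6, 54.5, 52.2 and 50.5, and at 24 h at 49.8, 47.1, 47.7 and 53.7 TPM. The irradiated groups overlapped the controls at every time, with the lowest value of all in control mouse 1. That mouse had the lowest MC-38 control value for each of the 5 neighbours. Its library also had the highest mt-Nd4l share in MC-38, 29.6% of TPM. The part of that share in these values was not tested. In RM-9 the controls were at 22.9, 23.5, 23.3 and 27.2 TPM, and the mice at 12 h at 18.5, 19.2, 18.4 and 19.9 TPM. All 4 RM-9 mice at 12 h were below all 4 controls, as were those of 19.4% of 14033 genes. The difference of -0.34 ± 0.10 (SE) did not pass (limma, adjusted p = 0.0524), against 8.32% of genes that passed as lower. It was at the edge of the threshold, with adjusted p in limma of 0.0398 when genes under a mean of 5 TPM were left out and 0.478 with median-ratio scaling. The RM-9 mice at 3 h (21.5 to 24.0 TPM) and 24 h (17.2 to 25.4 TPM) overlapped the controls.

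Eri2 and Rexo5, the exonuclease genes that share a start region, were both low. Eri2 in MC-38 was at 4.76, 7.23, 8.39 and 6.72 TPM in controls and at 10.2, 11.2, 10.6 and 8.68 TPM at 12 h, with no overlap. At 3 h (5.59 to 10.1 TPM) and at 24 h (4.77 to 9.89 TPM) it overlapped the controls. In RM-9, Eri2 was at 1.84, 2.83, 4.21 and 3.79 TPM in controls and at 5.09, 4.73, 3.73 and 6.65 TPM at 3 h, with 1 irradiated mouse inside the control range. That difference was 0.62 ± 0.23 (SE) and did not pass (limma, adjusted p = 0.160). On coverage scaled to depth, an alternative added after the values were seen, it was 0.17. Gene TPM sums over isoforms and coverage is taken over the merged gene, so the 2 scales need not move alike for this gene.
Rexo5 in MC-38 was at 2.50, 4.72, 6.37 and 4.07 TPM in controls and at 6.10, 8.63, 7.45 and 8.09 TPM at 12 h. At 24 h it was at 5.12, 8.35, 7.78 and 7.53 TPM. At both times 1 irradiated mouse lay below the highest control. In RM-9 it stayed between 0.974 and 2.23 TPM in all 15 libraries.

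Dcun1d3 and Lyrm1, which also share a start region, were low in both models, between 1.30 and 3.85 TPM in all 31 libraries. Dcun1d3 in RM-9 was at 2.12, 2.32, 2.41 and 2.27 TPM in controls and at 2.75, 3.16, 3.85 and 3.48 TPM at 3 h. All 4 mice at 3 h were above all controls, as in 9.87% of genes. The difference of 0.45 ± 0.10 (SE) did not pass (limma, adjusted p = 0.0819), where 0.2% of 14033 genes passed as higher. The RM-9 mice at 24 h, at 2.42 to 2.59 TPM, were also above the controls, as in 2% of genes, by 0.12 ± 0.11 (SE) on the log2 scale (limma, adjusted p = 0.9995). In MC-38, Dcun1d3 was at 1.66, 2.13, 2.53 and 2.13 TPM in controls, 2.42 to 3.42 at 3 h, 2.43 to 3.71 at 12 h and 2.67 to 2.92 TPM at 24 h, and the mice at 24 h did not overlap the controls.
Lyrm1 overlapped its controls at every time in both models, with values from 1.30 to 2.54 TPM over all 31 libraries.

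**Figure D2:**
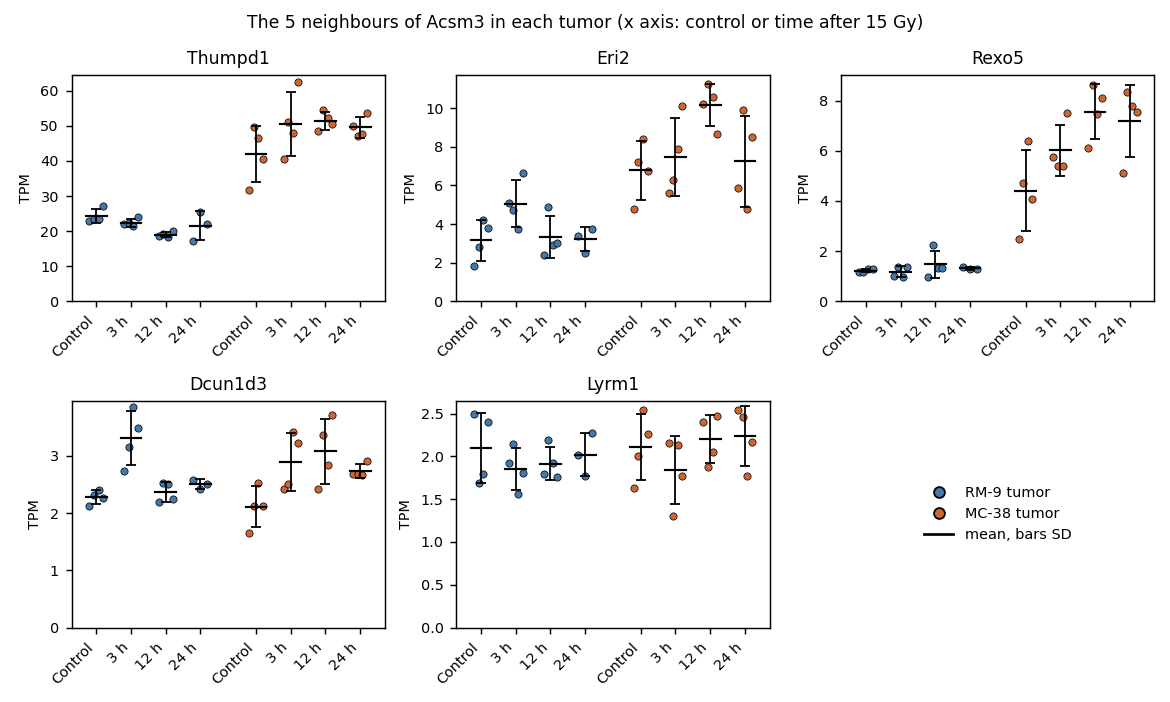
TPM (y axis) of the 5 neighbours in each tumor (points) by group (x axis), with means (lines) and SD (bars). Thumpd1, Eri2 and Rexo5 lie higher in MC-38 than in RM-9 controls, and Lyrm1 lies between 1.30 and 2.54 TPM throughout.

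Of the members with a value, 0 of 5 passed in RM-9 at any of the 3 times, beside 0.228%, 8.39% and 0% of all genes, and 0 of 6 in MC-38 at 3 h (limma). At an unadjusted p under 0.05 there were 2, 1, 0 and 2 of them, with 21.8%, 31%, 4.89% and 19.9% of all genes below that level. Dunnett's comparisons on TPM, the kind of test the study used, counted 1 of 5 at 3 h, 1 of 5 at 12 h and 0 of 5 at 24 h in RM-9 and 0 of 6 at 3 h in MC-38, with no adjustment over genes, beside 13%, 18.1%, 2.32% and 8.81% of all genes. The median log2 difference of the 5 neighbours was -0.04 in RM-9 at 3 h, 0.05 at 12 h and 0.05 at 24 h, beside 0.06, -0.19 and -0.04 for all genes.

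In MC-38 at 12 h, the neighbours differed from control by 0.77 (Rexo5), 0.57 (Eri2), 0.45 (Dcun1d3), 0.31 (Thumpd1) and 0.06 (Lyrm1) on the log2 scale, with SE of 0.14 to 0.22. At 24 h the differences were 0.69 (Rexo5), 0.32 (Dcun1d3), 0.25 (Thumpd1), 0.07 (Lyrm1) and 0.07 (Eri2). These comparisons were used for the choice and carry no test. The median of the 5 was 0.45 at 12 h and 0.25 at 24 h, where the median of all genes was 0.33 and 0.22. Non-overlapping higher groups were seen in 1 of 5 neighbours at 12 h (Eri2) beside 34.5% of all genes, and in 1 of 5 at 24 h (Dcun1d3) beside 14.8%.
The general upward shift depended on scaling. Limma called 4468 genes higher and 406 lower at 12 h, and 1258 higher and 1349 lower with median-ratio scaling. At 24 h it called 2075 higher and 87 lower, and 1576 higher and 993 lower with that scaling. With median-ratio scaling the differences at 12 h were 2.39 for Acsm3, 0.46 for Rexo5, 0.27 for Eri2, 0.18 for Dcun1d3, -0.01 for Thumpd1 and -0.19 for Lyrm1, so the last 2 turned from above to below 0. At 24 h with that scaling they were 3.06 for Acsm3, 0.48 for Rexo5, 0.13 for Dcun1d3, 0.04 for Thumpd1, -0.13 for Eri2 and -0.10 for Lyrm1, so Eri2 and Lyrm1 turned from above to below 0.

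**Figure D3:**
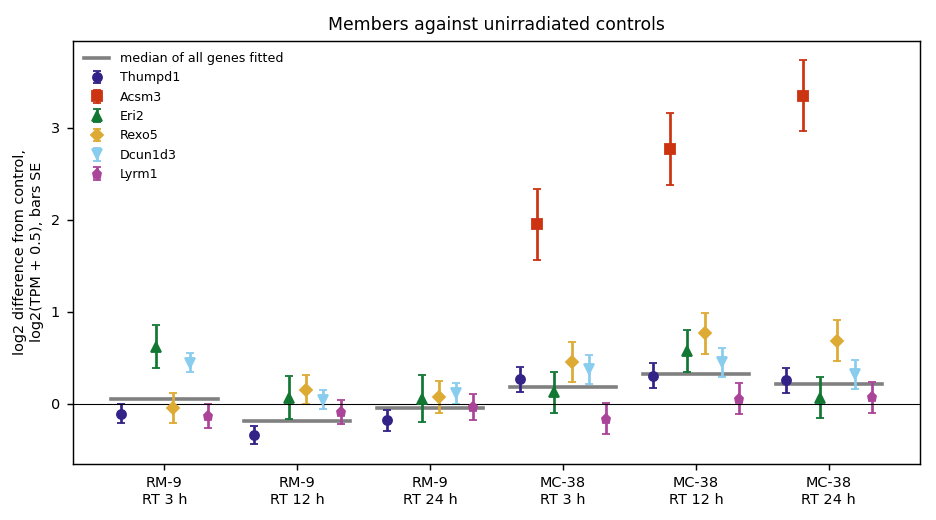
Log2 difference from control (y axis, on log2(TPM + 0.5), bars SE) of each member at 3 times in 2 tumor models (x axis), with the median of all genes fitted as a grey line. Acsm3 has values in MC-38 alone, from 1.95 at 3 h to 3.35 at 24 h, and the neighbours lie at or below 0.77.

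Between the unirradiated controls of the 2 models, 3 of 5 neighbours were higher in MC-38 and passed. Rexo5 was at 4.41 ± 1.60 TPM in MC-38 and 1.22 ± 0.0672 TPM in RM-9 (SD, n = 4 each), a log2 difference of 1.45 ± 0.19 (SE) with limma adjusted p = 2.15e-07. Eri2 was at 6.77 ± 1.51 and 3.17 ± 1.06 TPM, a difference of 1.01 ± 0.24 (SE) with limma adjusted p = 0.00042. Thumpd1 was at 42.0 ± 7.97 and 24.2 ± 1.98 TPM, a difference of 0.77 ± 0.12 (SE) with limma adjusted p = 3.3e-06. Dcun1d3 (-0.10) and Lyrm1 (0.01) did not pass.
These calls stand beside 64.7% of 15380 genes called higher in MC-38, and the groups did not overlap for these 3 neighbours and for 50.8% of all genes. The median of all genes was 0.63, and limma called 9946 genes higher and 1642 lower, against 5110 and 4890 with median-ratio scaling. With that scaling Rexo5 alone of the 3 passed as higher, Eri2 (0.42) and Thumpd1 (0.11) did not pass, and Dcun1d3 (-0.65) and Lyrm1 (-0.54) passed as lower in MC-38. Whether libraries of both models were made and sequenced together is not given in the sources used here, so tumor model and any such batch cannot be told apart.

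The difference between the models in the effect of RT was tested at 3 h for the 5 neighbours. None passed (limma), nor did any of 15380 genes, with 1 neighbour and 9.89% of genes at an unadjusted p under 0.05. The smallest adjusted p was that of Thumpd1, 0.37 ± 0.17 (SE) higher in MC-38 (limma, adjusted p = 0.487). At 12 h and 24 h the same differences are given without a test. At 12 h they were 0.65 for Thumpd1, 0.61 for Rexo5, 0.51 for Eri2, 0.41 for Dcun1d3 and 0.15 for Lyrm1, beside a median of 0.50 for all genes. At 24 h Rexo5 had the largest, 0.61, beside a median of 0.25.

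Beyond the members, the stretch from 1 Mb before to 1 Mb after Acsm3 held 38 listed genes, of which 14 had a mean of at least 0.5 TPM in MC-38. At 12 h the 13 other than Acsm3 differed from control by 0.06 to 0.77, median 0.31, and at 24 h by -0.02 to 0.69, median 0.24. Acsm3 was at 2.77 and 3.35.
The expressed gene nearest to its start, Ppp1ccb, 20.8 kb away, was at 58.9 TPM in controls, 65.8 at 12 h and 57.8 at 24 h. Of the 8 genes that are no members, Vps35l (0.45) and Mosmo (0.68) were called higher at 12 h and none at 24 h. Of all genes, 28.4% and 13.2% were called higher in these comparisons, by which Acsm3 was chosen. Gprc5b (0.41), Knop1 (0.29), Tmem159 (0.19), Ppp1ccb (0.17), 9030407P20Rik (0.14) and Uqcrc2 (0.08) were not called at 12 h.

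**Figure D4:**
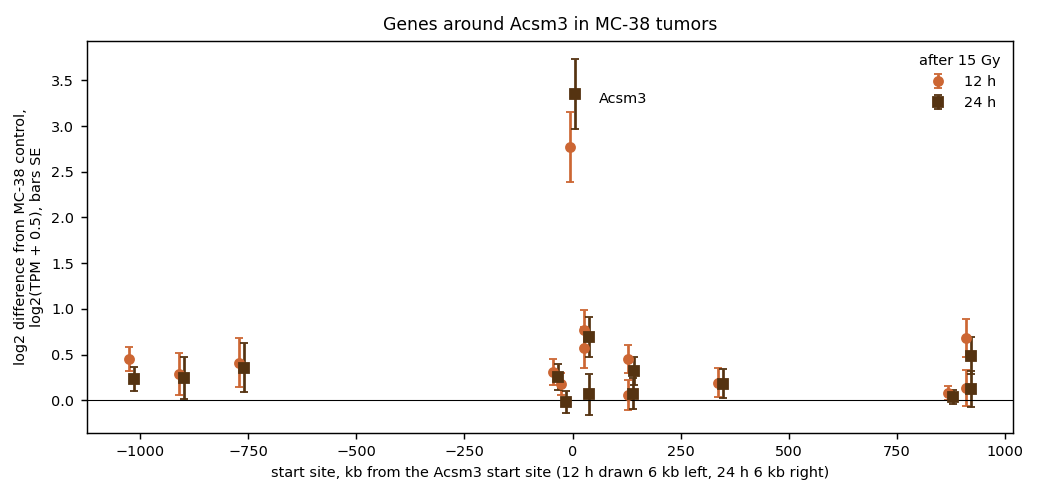
Log2 difference from MC-38 control (y axis, bars SE) at 12 h and 24 h for the 14 expressed genes around Acsm3, by distance of their start sites from that of Acsm3 in kb (x axis). Acsm3 is at 2.77 and 3.35, and the other 13 genes lie between -0.02 and 0.77.

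The genes most like Acsm3 were found by Pearson's r in log2(TPM + 0.5) over the 16 MC-38 libraries, among 14234 other genes with a mean of at least 1 TPM. The 6 highest were Rom1 (0.962), a membrane protein of photoreceptors, Osmr (0.949), a receptor subunit for oncostatin M, St5 (0.943), Tead3 (0.937), a transcription factor of the Hippo pathway, Nxn (0.930), a thioredoxin-like protein, and Ppm1b (0.928), a protein phosphatase. The libraries share groups and scaling, and with group means subtracted r was 0.750, 0.772, 0.753, 0.821, 0.688 and 0.754 in the same order. Osmr was at 7.76 ± 1.17 TPM in controls and 16.7 ± 3.14 TPM at 24 h, and Rom1 at 5.44 ± 0.447 and 11.3 ± 1.12 TPM (SD, n = 4 each).
The neighbours had a lower r with Acsm3 than these 6, which were picked as the highest. Rexo5 (0.699) ranked 1788, Dcun1d3 (0.679) 2124, Thumpd1 (0.615) 3269, Eri2 (0.334) 8171 and Lyrm1 (0.122) 10575 of 14234 genes. With group means subtracted their r was 0.186, 0.419, 0.435, 0.265 and -0.034 in the same order.

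Genes with related roles were counted without the members, and their directions depended on scaling. The genes named are up to 3 of each list with the smallest p in MC-38 at 12 h. The lists were chosen with earlier results of these data known, so the p-values given are descriptive. Of 90 genes fitted in MC-38 over the 6 lists of related genes, 21 (23.3%) rose and 0 fell at 12 h, beside 28.4% of all genes called higher, and with median-ratio scaling 6 rose and 8 fell. At 24 h 10 (11.1%) rose and 1 fell, beside 13.2% of all genes called higher, and with that scaling 7 rose and 7 fell. Of 20 other acyl-CoA synthetases fitted in MC-38, 3 (15%) rose and 0 fell at 12 h and 2 rose at 24 h, beside the same shares of all genes, with medians of 0.20 and 0.19. Aacs, which activates acetoacetate, was at 28.1 ± 5.55 TPM in controls and 45.3 ± 3.10 TPM at 12 h, a difference of 0.70 (limma, adjusted p = 0.00849). Acsl4, for long-chain polyunsaturated fatty acids, differed by 0.66 and Acsf2 by 0.75 (limma, adjusted p = 0.0187 and 0.0224). With median-ratio scaling these 3 still passed as higher, by 0.38, 0.34 and 0.43, and 1 other acyl-CoA synthetase passed as lower. The difference of Acsm3 was 2.77, or 2.39 with that scaling.
Of 24 genes of mitochondrial fatty acid oxidation, 12 rose and 0 fell at 12 h and 6 rose at 24 h, with medians of 0.30 and 0.27 beside 0.33 and 0.22 for all genes. Cpt2, the inner carnitine palmitoyltransferase, differed by 0.66, Cpt1c by 0.83 and Hadha, a subunit of the trifunctional protein, by 0.38 (limma, adjusted p = 0.00557, 0.00706 and 0.0127). With median-ratio scaling 3 rose and 2 fell at 12 h and the median was -0.01, with Cpt2 (0.34) and Cpt1c (0.56) past the threshold and Hadha (0.06) not. In RM-9, 3 of 24 fell at 12 h, and none was called at 3 h or 24 h.
Of 15 other DEDDh exonucleases, 2 rose in MC-38 at 12 h, Aen (0.58) and Parn (0.47), and 1 at 24 h. Of 17 other cullin neddylation genes, 3 rose at 12 h, Cul4b (0.51), Cul4a (0.48) and Uba3 (0.40), and 1 at 24 h. None of 9 other LYR motif genes was called at either time. Of 5 other THUMP domain and RNA acetylation genes, Thumpd2 (0.50) rose at 12 h and 1 fell at 24 h. With median-ratio scaling none of these 6 named genes passed at 12 h, and 3 cullin neddylation and 2 LYR motif genes fell. In MC-38 at 3 h and in RM-9 at 3 h and 24 h no gene of these 6 lists was called, and in RM-9 at 12 h 11 of 86 genes (12.8%) fell and 0 rose, beside 8.32% of all genes called lower, where median-ratio scaling called none of the 86.

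Some markers of other cells were called in MC-38 tumors at 12 h and 24 h, and some in RM-9, where Acsm3 was at 0. In RM-9 at 12 h, 5 of 8 macrophage markers (median -0.81) and 3 of 6 T cell markers (median -0.67) fell. Of all genes, 8.32% were called lower in that comparison. With median-ratio scaling none of these macrophage and T cell markers was called in RM-9 at 12 h. The values that follow are for MC-38. Of all 15722 genes, 406 were called lower at 12 h and 87 at 24 h, with 28.4% and 13.2% called higher. Of 8 macrophage markers, 6 fell at 12 h and 1 at 24 h, and their summed level was 851 to 1361 TPM in controls, 310 to 736 at 12 h and 693 to 872 TPM at 24 h. Of 6 T cell markers, 3 fell at 12 h, Cd3g (-0.93), Cd3e (-0.77) and Cd4 (-0.75), and 2 at 24 h, with sums of 19.3 to 26.7 TPM in controls and 10.5 to 19.9 TPM at 12 h. With median-ratio scaling 7 macrophage and 6 T cell markers fell at 12 h, and 3 of each at 24 h, beside 1349 and 993 of 15051 genes. Of 4 B cell markers 1 rose at both times (Cd79a, 0.58 and 1.13), of 6 fibroblast markers 1 rose at 12 h (Pdgfra, 0.92), and of 5 endothelial markers 2 rose at 24 h. None of 6 neutrophil, 6 skeletal muscle, 4 epithelial and 6 hepatocyte markers was called at 12 h or 24 h, and 1 of 4 adipocyte markers rose at 24 h. With median-ratio scaling, 1 neutrophil marker fell at 12 h, Pdgfra (0.61) still passed as higher, Cd79a (0.28) did not at 12 h, and no endothelial or adipocyte marker was called at 24 h. Muscle sums spread from 18.6 to 10090.0 TPM among the controls.
Of liver and kidney, the organs known for ACSM genes, hepatocyte markers summed to 5.28 to 8.12 TPM in controls, 5.47 to 10.96 at 12 h and 5.18 to 8.84 TPM at 24 h. Kidney tubule markers summed to at most 0.229 TPM in controls, 0.548 to 1.23 TPM at 12 h and 0.454 to 1.81 TPM at 24 h, with Umod and Kap at 0 in every library. Only 2 of these 5 were above 0 in an MC-38 library, and both were fitted though near the floor. Slc34a1 had a mean of 0.13 TPM in controls. Of these 2 genes, 1 rose at 12 h (Slc34a1, 0.98) and 2 at 24 h, and none was called with median-ratio scaling. The part of these markers in the Acsm3 values was not tested.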

How the data were processed

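Tumor mRNA was sequenced from 31 mice (Illumina TruSeq stranded kit, single reads of 75 bases), and bcl2fastq 2.17 is named in the submitters' processing notes. The aligner, counter and annotation are not given in the sources used here. The notes name GRCm39, and coordinates in the files fit GRCm38. The authors deposited TPM and FPKM, both normalised for gene length and depth, and coverage, a signal of mean reads per base that is not scaled. TPM of genes listed in more than 1 row was summed. Read depth was computed from coverage and FPKM and limits low genes, for which counting error is unknown.

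Values were log2(TPM + 0.5) of genes with a mean of at least 0.5 TPM. Members, list genes and markers above 0 in any library of the fit were kept at any level. They were fitted with limma 3.58.1 (R 4.3.3, eBayes with trend), 4 groups per model together, or 8 groups for comparisons between models. Benjamini-Hochberg adjustment ran over all genes tested, with a threshold of 0.05. The fit was tested on simulated data that held no shift shared by a whole library, so that check does not bear on scaling. Replicates were separate mice per the labels. Other settings tried were a pseudocount of 0.1 or 1, scaling by median ratios, TPM recomputed after removing genes encoded in mitochondria, other filters, 2 groups only, a replicate block, eBayes without trend, each mouse left out, Dunnett's comparisons (scipy 1.17.1), and depth-scaled coverage, added after the values were seen.

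Named genes were the members, other ACSM genes, expressed genes within 1 Mb, the 6 most like Acsm3, and up to 3 of each list with the smallest p at 12 h in MC-38. Macrophage markers are given as counts and summed levels, with none named. The planned test of 24 h against 12 h in MC-38 is given as values only, since both groups entered the choice. The members and lists were chosen with earlier results of these data known. Of the list genes 1, Acn9, was not matched. Mouse numbers did not pair the samples. Tables and figures used Python 3.11.15, pandas 2.3.3 and matplotlib 3.10.9.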

Additional observations from a re-analysis of the deposited data

Results flagged for a closer look

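Within groups of 4 mice, 3 of 39 groups examined held 1 mouse far from the rest, where chance gives about 1 in 20. In MC-38 at 24 h the highest Acsm3 value was 29.0 TPM, and its gap to the next mouse was 0.919 of the range of the group. In the same group the highest Dcun1d3 value was 2.92 TPM, with a gap of 0.905 of the range, and it came from another mouse. In RM-9 controls the highest Thumpd1 value was 27.2 TPM, with a gap of 0.855 of the range.

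At 12 h after RT, Thumpd1 was above the control mean in all 4 MC-38 mice, by 9.39 TPM on average, and below the control mean in all 4 RM-9 mice. The difference between the models was not tested, since the MC-38 comparison was used for the choice of genes, and the medians of all genes moved in the same 2 directions, by 0.33 and -0.19 on the log2 scale. With median-ratio scaling Thumpd1 differed from control by -0.01 in MC-38 and -0.12 in RM-9, so the directions were no longer opposite. The MC-38 mice at 12 h also overlapped their controls.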

How the results depend on the processing

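No direction that had been called was reversed. Under 10 other settings the Acsm3 difference in MC-38 ran from 2.38 to 3.15 at 12 h and from 2.94 to 3.74 at 24 h. The SE of each reported difference was 0.39. Without 1 mouse at a time the Acsm3 difference ran from 2.52 to 3.07 at 12 h and from 3.10 to 3.65 at 24 h. The median difference of the 5 neighbours is given with no test and depended on scaling. It ran from 0.37 to 0.55 at 12 h (0.45 as reported) and from 0.13 to 0.33 at 24 h (0.25 as reported) without 1 mouse, and was 0.18 and 0.04 with median-ratio scaling. Counts of members called in RM-9, 0 as reported, were 1 at 3 h by Dunnett's comparisons, and 1 at 12 h by those, with a mean of at least 5 TPM, the replicate block or coverage. In MC-38 at 3 h, 0 as reported, they were 1 with TPM without mitochondrially encoded genes and 0 to 1 without 1 mouse. Between controls, 3 as reported, all higher in MC-38, they were 5 with that rescaling, not all in 1 direction. Dcun1d3 ran from -0.65 to -0.08 under the other settings, and Lyrm1 from -0.54 to 0.01. Median-ratio scaling also gave 3, but Rexo5 as higher and Dcun1d3 and Lyrm1 as lower in MC-38. The causes were not tested. The replicate block changed the call of Thumpd1 in RM-9 at 12 h (limma, adjusted p = 0.0465) and no other call in the comparisons tested here. Same-numbered mice did not deviate together.

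The 4 or 3 mice per group and the low coverage of Acsm3 in controls limit the precision of its fold. Coverage was also low for Lyrm1, at 0.48 to 0.78 reads per base in MC-38 and 0.82 to 1.26 in RM-9. For Rexo5 in RM-9 it was 0.76 to 1.24, so the values of these genes rest on few reads too.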
